A study of Drosophila melanogaster with 6 samples.

Results

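Eye pigment genes were examined in the heads of male flies as 10 genes of the ommochrome and pteridine pathways, chosen by gene symbol from the 17807 genes counted. All 10 were found by FlyBase identifier in the count table, and 9 of them passed edgeR's filter on low counts. The list was proposed with earlier results of the same comparison known, so the differences of its members are given as a description. Normalized counts are CPM, the reads of a gene as a share of the library's reads on the usual counts-per-million scale, adjusted with TMM factors. Values of single libraries follow the order of the replicate numbers, 1 to 3.

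Poly-A RNA was sequenced from 3 control and 3 pum kd libraries, each from 10 pooled heads of adult males that were roughly a week old when the sleep assay began. The study asked which RNAs of the head change when the RNA-binding protein Pumilio is reduced in peripheral cells. In both groups the label gives an X chromosome pair with w1118 against y1, sc*, v1 and sev21, and one copy each of esg-Gal4 with UAS-2xYFP and of Su(H)GBE-Gal80 with tub-Gal80ts. Control flies carried UAS-mCherryRNAi, a VALIUM20 hairpin against a protein that flies lack, and pum kd flies carried UAS-pumRNAi, the line TRiP.HMS01564. Both hairpins sat at the site attP2 and carried the markers y[+t7.7] and v[+t1.8]. Flies were reared at 18 °C and the hairpins were switched on at 29 °C, and before freezing all flies stayed 30 min at that temperature in tubes. By the study's methods the driver works in stem cells of the gut and in the gland that makes juvenile hormone, neither of them part of the eye. The study adds that a few neurons of the adult brain may also express it. A male has a single X chromosome, and the label does not say which of the listed chromosomes these males carried.

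The colour of the fly eye comes from a brown and a red set of pigments that are stored in granules of the pigment and photoreceptor cells. The brown ommochromes are made from tryptophan through kynurenine, and the red drosopterins are pteridines made from GTP. ABC transporter subunits load the precursors into the granules. Flies that lack the protein of w have white eyes, those that lack v, cn or st have bright red eyes, and those that lack bw have brown eyes. Much of the pigment is laid down in the pupa, and the heads studied here were those of adults. The pteridine pathway also leads to tetrahydrobiopterin, the cofactor of enzymes that make dopamine and serotonin.

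The libraries held 33258537 to 39377789 gene counts, so that 1 read equalled 0.0267 to 0.0302 CPM. The heads carried strong photoreceptor signal, with 12 of 12 photoreceptor markers tested and none called. The 12 photoreceptor markers summed to 104081 to 114941 CPM in control libraries and 101839 to 117144 CPM in pum kd libraries. Midgut markers summed to at most 1.06 CPM, with 3 of 6 at 0 reads in every library, and testis markers to at most 3.12 CPM, with 2 of 6 at 0 reads. Accessory gland markers summed to at most 1.30 CPM, with 2 of the 4 counted genes at 0 reads in every library. The targeted gene, pum, had 346, 168 and 270 CPM across the control replicates against 176, 192 and 228 CPM across the pum kd replicates, so the groups overlapped. Across all 10696 genes tested, edgeR's quasi-likelihood test called 11 with the study's thresholds, 0.05 for the adjusted p and 1 for the size of the log2 fold change in either direction. These 11 are 0.103% of the genes tested, and the 9 of them that were higher in pum kd heads are 0.0841%. The study applied the same thresholds to DESeq2 after ComBat-seq, so 11 is not its own count of changed genes.

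None of the 9 members tested was called by edgeR, against 0.103% of all genes called in either direction and 0.0841% called higher. At an unadjusted p under 0.05 there were 2 members, se and bw, where 4.95% of all genes passed. DESeq2 on the same counts called 1 member, se, and 0.461% of all genes it could test. All 9 had a log2 fold change above 0, as did 45.6% of all genes, and their median was 0.27, against -0.03 over all genes tested. The 9 values come from the same 6 libraries and do not count as 9 independent observations. In 3 members, se, v and bw, all knockdown libraries lay above all control libraries, a pattern seen in this direction in 5.36% of all genes tested. In bulk heads, a change in the number of cells of a type and a change in RNA per cell cannot be told apart.

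**Figure D1:**
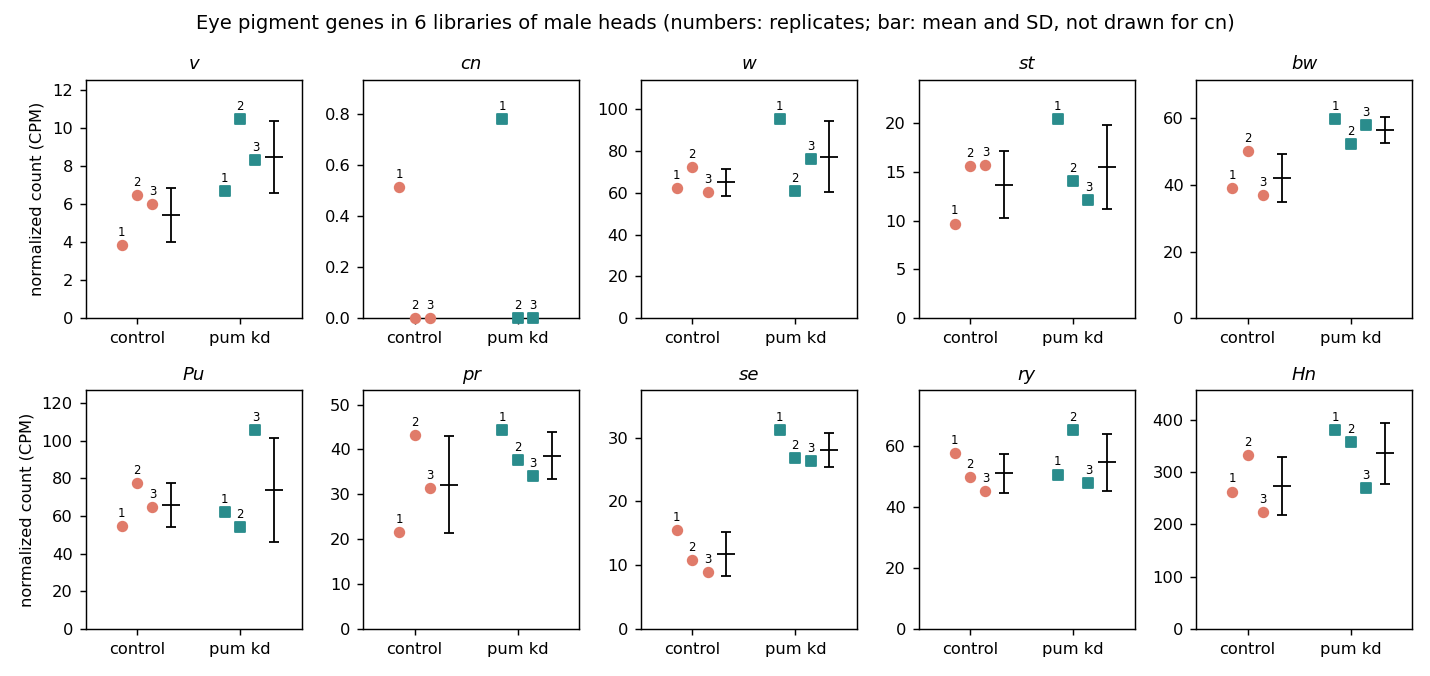
Normalized counts (CPM, linear axes from 0) of the 10 eye pigment genes in each library, with control libraries as circles, pum kd libraries as squares, the replicate number above each point and the mean with SD of 3 libraries beside them. The groups are apart for v, bw and se, and for cn only replicate 1 of each group is above 0.

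The ommochrome branch opens with v, which encodes tryptophan 2,3-dioxygenase, the enzyme that turns tryptophan into formylkynurenine. The gene (FBgn0003965) occupies chromosome X of dm6, 10923972 to 10925631 on the plus strand, with 1305 bases of exon. It had 3.84, 6.48 and 6.001 CPM across the control replicates against 6.69, 10.5 and 8.34 CPM across the pum kd replicates. Control replicate 1 was the lowest library, and the lowest pum kd library stood only just above the highest control library. The means were 5.44 ± 1.41 CPM (control) and 8.50 ± 1.89 CPM (pum kd) (SD, n = 3 each), and the fitted log2 fold change was 0.64 with a standard error of 0.31. These values rest on 127 to 392 reads in a library. Both genotypes carry the v1 allele in their label and a v+ copy in the hairpin insertion, and reads of the resident gene and of the inserted copy cannot be told apart in the counts of a gene. Without control replicate 1 the log2 fold change of v was 0.45.

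The gene cn encodes kynurenine 3-monooxygenase, the enzyme that makes 3-hydroxykynurenine, the direct building block of the brown pigment. It (FBgn0000337) lies on chromosome 2R from 7782797 to 7785067, on the minus strand. It had 17 reads in control replicate 1, 26 reads in pum kd replicate 1 and 0 reads in the other 4 libraries. These are 0.513 and 0.780 CPM, and a count of 0 allows up to 0.0801 to 0.0883 CPM in the other libraries for counting error alone. Reads were found only in replicate 1 of each group, and the gene did not pass the filter on low counts. Of its 1790 bases of exon, 1229 lie opposite an exon of asRNA:CR45108, and although the libraries were stranded, the strand setting of the counting is not given in the sources used here. Whether reads of the pair were mixed or set aside was not tested. That antisense gene had 0 to 1.31 CPM in the 6 libraries.

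Of the other ommochrome genes, cd, which encodes the haem peroxidase of the last step, had 2.51, 2.82 and 3.71 CPM across the control replicates. It had 3.45, 3.87 and 1.78 CPM across the pum kd replicates, and its log2 fold change was 0.01 with a standard error of 0.49 (adjusted p = 1.00 by edgeR). The groups overlapped. KFase, for kynurenine formamidase, was not matched by its symbol and has no value here.

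The transporters share the subunit encoded by w, which pairs with the product of st to carry ommochrome precursors and with that of bw to carry pteridine precursors. The gene w (FBgn0003996) lies on chromosome X from 2790599 to 2796466, on the minus strand, with 2352 bases of exon. It had 62.3, 72.2 and 60.4 CPM across the control replicates against 95.1, 60.9 and 76.0 CPM across the pum kd replicates. Pum kd replicate 1 was the highest library and pum kd replicate 2 lay within the control range. The means were 65.0 ± 6.34 and 77.35 ± 17.1 CPM (SD, n = 3 each), and the fitted log2 fold change was 0.25 with a standard error of 0.19. It was 0.12 without pum kd replicate 1 and 0.43 without pum kd replicate 2. Transgenes of the Gal4 and Gal80 type often carry a shortened w gene as their marker. The labels name w1118 on one X chromosome and give no marker for the driver insertions, so reads of a resident w gene and of a marker copy cannot be told apart.

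The gene bw (FBgn0000241), on chromosome 2R from 23527805 to 23538499, had 39.15, 50.2 and 36.9 CPM across the control replicates. Across the pum kd replicates it had 59.6, 52.2 and 57.8 CPM. Control replicate 2 was close below the lowest pum kd library, and the other control libraries were well below. The means were 42.1 ± 7.13 and 56.5 ± 3.88 CPM (SD, n = 3 each), and the fitted log2 fold change was 0.42 with a standard error of 0.17 (edgeR adjusted p = 0.879). The gene overlaps 456 bases of exon of mi on the opposite strand, and mi had 21.6 to 32.7 CPM with a log2 fold change of -0.22. The annotation also places a transposable element of 7519 bases within bw, outside its exons.

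The gene st (FBgn0003515), on chromosome 3L from 16497651 to 16500460, had 9.70, 15.6 and 15.7 CPM across the control replicates. It had 20.4, 14.0 and 12.1 CPM across the pum kd replicates, and the groups overlapped. Its highest library was pum kd replicate 1 and its lowest control replicate 1. The log2 fold change was 0.18 with a standard error of 0.27. It was -0.03 without pum kd replicate 1, -0.02 without control replicate 1 and 0.33 without pum kd replicate 3.

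Summed over w, st and bw, the transporters had 111, 138 and 113 CPM across the control replicates against 175, 127 and 146 CPM across the pum kd replicates. The sums of the groups overlapped. Within a library, the level of w per kb of exon was 1.36 to 1.90 times that of bw and 3.51 to 5.87 times that of st. Set against st and bw together, w was at 1.28 ± 0.113 in control and 1.17 ± 0.144 in knockdown heads (SD, n = 3 each, ratio of CPM per kb). This ratio to both partners together differed between the groups by less than the SD of either group. Against bw alone, w was at 1.81 ± 0.121 in control and 1.58 ± 0.253 in knockdown heads. Against st alone, it was at 4.53 ± 1.21 and 4.66 ± 0.956. The groups overlapped in each of these ratios, and whether they differed was not tested.

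The pteridine branch opens with Pu, which encodes GTP cyclohydrolase I, followed by pr, which encodes 6-pyruvoyltetrahydropterin synthase. Pu (FBgn0003162; chromosome 2R, 21175315 to 21182608) had 54.6, 77.8 and 64.8 CPM across the control replicates against 61.95, 54.0 and 106 CPM across the pum kd replicates. Pum kd replicate 3 stood above all other libraries and pum kd replicate 2 was the lowest. The log2 fold change of Pu was 0.17 with a standard error of 0.25, with -0.18 when pum kd replicate 3 was left out and 0.38 when pum kd replicate 2 was. The gene pr (FBgn0003141; chromosome 2L, 20073719 to 20075458) had 21.6, 43.3 and 31.45 CPM across the control replicates against 44.3, 37.6 and 34.0 CPM across the pum kd replicates. The groups overlapped through control replicate 2, and the log2 fold change was 0.27 with a standard error of 0.24. It was 0.05 without control replicate 1 and 0.57 without control replicate 2.

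The gene se encodes an omega class glutathione S-transferase that acts as PDA synthase, the step that leads to the red drosopterins. It (FBgn0086348) lies on chromosome 3L from 8520552 to 8521489, on the plus strand, with 825 bases of exon. It had 15.5, 10.9 and 8.88 CPM across the control replicates against 31.2, 26.7 and 26.3 CPM across the pum kd replicates. The 3 pum kd libraries were close together and all lay well above the highest control library. The means were 11.8 ± 3.41 CPM (control) and 28.05 ± 2.697 CPM (pum kd) (SD, n = 3 each). The log2 fold change was 1.25 with a standard error of 0.24, a fitted difference of 2.39-fold, and the adjusted p by edgeR was 0.136. The gene was therefore past the threshold on size and not past that on the adjusted p. Its counts were 302 to 1038 reads.

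When single libraries were left out, the value of se stayed between 1.09 and 1.51. Its edgeR adjusted p was 0.0454 without control replicate 1 and 0.758 without control replicate 3. The gene passed both thresholds with DESeq2 (log2 fold change 1.27, adjusted p = 0.00260), with edgeR on every gene with at least 1 count (1.31, adjusted p = 0.00369) and with edgeR after ComBat-seq (1.51, adjusted p = 0.0103). Of all genes tested, 0.552% were called without a filter, 0.28% after ComBat-seq and 0.108% without control replicate 1. ComBat-seq was run on a division of the libraries into a set of pum kd replicate 1 with control replicates 1 and 2 and a set of the others, the division that gave back 100% of the authors' normalized values. In the set with 2 controls, se was at 15.5 and 10.9 CPM in the controls and 31.2 CPM in the knockdown library. In the other set it was at 8.88 CPM in the control and 26.7 and 26.3 CPM in the knockdown libraries. With the division as a term in edgeR, the log2 fold change of se was 1.41 and its standard error 0.24. The adjusted p by edgeR was then 0.0953, so se was not called. After ComBat-seq, which was given the groups, the standard error of se was smaller, at 0.15. That fit had no term for the division, so its standard error and adjusted p do not account for the adjustment. Of the 14 alternative settings, 4 called se.

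The gene se lies in a row of omega class glutathione S-transferase genes, and its 3′ end overlaps that of GstO2 on the opposite strand by 61 bases. These neighbours were chosen after their values were seen. GstO2 had 64.2, 73.0 and 69.3 CPM across the control replicates against 92.0, 87.0 and 68.4 CPM across the pum kd replicates. GstO3, upstream of se, had 46.6, 69.4 and 51.5 CPM across the control replicates against 92.9, 57.8 and 53.7 CPM across the pum kd replicates. GstO1, beyond GstO2, had 7.28, 16.8 and 12.03 CPM and 17.7, 15.3 and 12.3 CPM. In each of the 3 neighbours the groups overlapped, and the log2 fold changes were 0.26 (GstO2), 0.29 (GstO3) and 0.32 (GstO1), with standard errors of 0.17, 0.24 and 0.30. The difference between se and its neighbours was not tested.

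**Figure D2:**
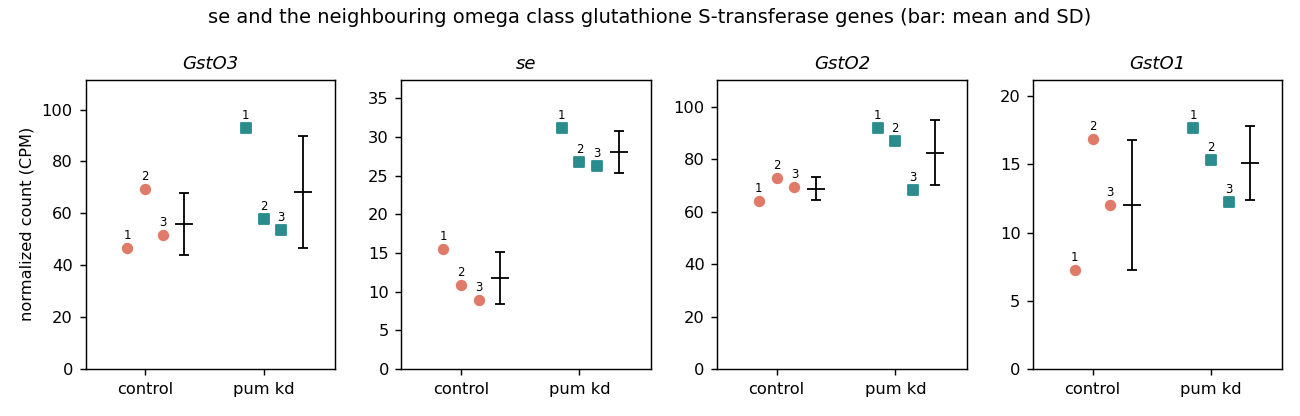
Normalized counts (CPM, linear axes from 0) of se and its neighbours GstO3, GstO2 and GstO1 by library, with control libraries as circles, pum kd libraries as squares and the mean with SD of 3 libraries beside them. The pum kd libraries of se, at 26.3 to 31.2 CPM, are apart from the control libraries at 8.88 to 15.5 CPM, and the groups overlap for each neighbour.

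The gene ry encodes xanthine dehydrogenase, which makes isoxanthopterin and uric acid. It (FBgn0003308; chromosome 3R, 13032528 to 13038020) had 57.99, 50.1 and 45.4 CPM across the control replicates against 50.8, 65.4 and 48.1 CPM across the pum kd replicates. The groups overlapped and the log2 fold change of 0.10 was smaller than its standard error of 0.18. Without pum kd replicate 2 it was -0.02, and without control replicate 1 it was 0.20.

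The gene Hn encodes phenylalanine hydroxylase, which turns phenylalanine into tyrosine with tetrahydrobiopterin as its cofactor. It (FBgn0001208; chromosome 3L, 7760453 to 7763166) was the highest of the 10 genes, with 263, 333 and 224 CPM across the control replicates. Across the pum kd replicates it had 380, 358 and 270 CPM. Control replicate 2 was above pum kd replicate 3, so the groups overlapped, and the log2 fold change was 0.30 with a standard error of 0.21. Leaving out control replicate 3 gave 0.18 and leaving out control replicate 2 gave 0.50.

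Per kb of exon, the order of the levels over all 6 libraries began with Hn at a mean of 144 CPM per kb, followed by pr at 32.97, Pu at 32.4, w at 30.3, se at 24.1, bw at 18.0 and ry at 12.2. Then came st at 6.79, v at 5.34 and cn at 0.1205 CPM per kb. The place of se was not the same in both groups. In control heads se was at 14.3 CPM per kb, below bw at 15.4, and in pum kd heads at 34.0 CPM per kb, above w at 32.9. The ranges of the neighbours pr, Pu, w, se, bw and ry overlapped at each step of the order, as did those of st and v. Hn was apart from pr, ry from st, and v from cn in every library. Apart from Hn, the pteridine synthesis genes lay at 12.2 to 32.97 CPM per kb and v at 5.34 CPM per kb, and the value of cn has the limit given above for its antisense gene. Levels of different genes compare only as far as exon length accounts for the reads a gene can give.

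**Figure D3:**
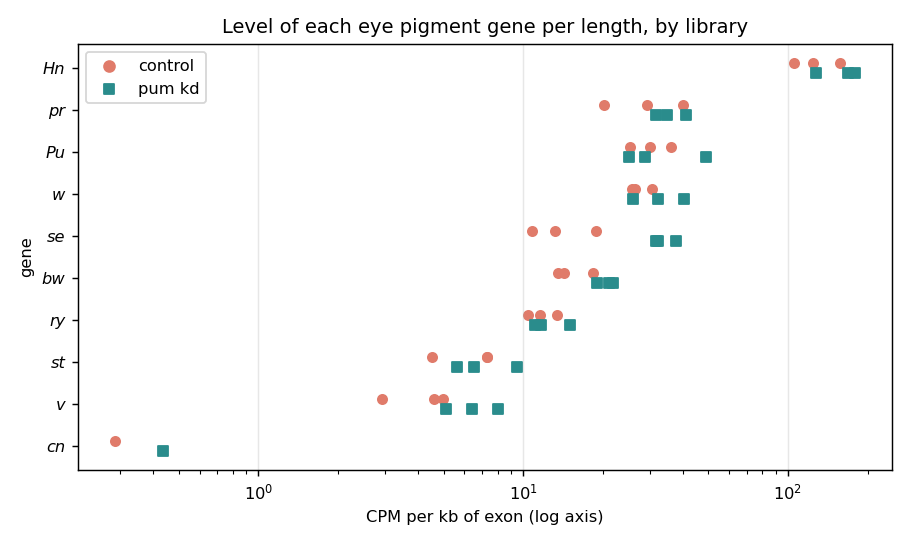
Level of each eye pigment gene per kb of exon (CPM per kb, log axis), with a circle for each control library and a square for each pum kd library, and genes in order of their mean. Libraries with 0 reads of cn are not drawn. Hn is apart at the top and cn at the bottom, and from pr to ry the ranges of neighbours overlap.

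By class, v and cn summed to 4.35, 6.48 and 6.001 CPM across the control replicates against 7.47, 10.5 and 8.34 CPM across the pum kd replicates. The pteridine members summed to 413, 515 and 374 CPM across the control replicates against 569, 541 and 484 CPM across the pum kd replicates, most of it from Hn. Hn was counted in this class, although its enzyme turns phenylalanine into tyrosine and uses a pteridine only as its cofactor. Without Hn the sums were 149.8, 182 and 150.5 CPM and 188, 184 and 214 CPM. The ratio of the means, pum kd over control, was 1.56 for v and cn and 1.24 for the transporters. It was 1.225 for the pteridine members and 1.215 for them without Hn. Whether the classes differed in this ratio was not tested. Nearly all of the sum of v and cn was v, with means of 5.44 CPM (control) and 8.50 CPM (pum kd). The other ommochrome gene cd, outside this sum, had a log2 fold change of 0.01. Without Hn, the pteridine means were 161 CPM (control) and 195 CPM (pum kd), and se made up 11.8 and 28.05 CPM of them. Among the pteridine members other than se, the median log2 fold change was 0.22, from 0.10 for ry to 0.30 for Hn.

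Pum kd replicate 1 was the highest library for 6 of the 9 members tested, and control replicate 3 the lowest for 5 of them. How often these libraries were the highest or lowest over all genes was not computed. Pum kd replicate 1 was also the highest library for the 3 markers of pigment and cone cells as a sum. These markers are Pdh and rdhB, enzymes of retinal pigment cells, and Crys, a lens protein. Their sums were 429, 576 and 423 CPM across the control replicates against 693.5, 517 and 522 CPM across the pum kd replicates. The groups overlapped, none of the 3 markers was called, and none was at 0 reads. Most of the sum was Pdh, at 368 to 599.9 CPM, and the markers differed in direction, with log2 fold changes of 0.27 for Pdh, 0.47 for rdhB and -0.35 for Crys. Crys was highest in control replicate 3, at 12.002 CPM. The part of pigment cell content in the members' values was not tested. The 8 head fat body markers, of which none was called or at 0 reads in all libraries, summed to 1638 to 2366 CPM in control and 1846 to 2537 CPM in knockdown heads. Nearly all of this sum was apolpp, at 1558 to 2477 CPM, and the next highest marker, Yp3, was at 25.6 to 45.0 CPM.

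The rest of the pathway was described by 22 further genes, of which 21 could be tested. By edgeR none was called and none had an unadjusted p under 0.05, where the shares over all genes tested were 0.103% and 4.95%. DESeq2 also called none, where it called 0.461% of all genes it could test. Log2 fold changes were above 0 in 11 genes and below 0 in 10, where 45.6% of all genes tested were above 0. Their median was 0.01, against -0.03 over all genes tested. Only mal and Rab32 had all knockdown libraries above all control libraries, where 5.36% of all genes tested did, and no gene had them all below, where 4.95% did.

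Of the 7 other pteridine genes, Sptr, for sepiapterin reductase, had the lowest log2 fold change at -0.25, with 15.3 ± 2.04 CPM in control and 12.9 ± 0.943 CPM in knockdown heads (SD, n = 3 each). The gene mal encodes the sulfurase that completes the molybdenum cofactor of the ry enzyme. It had 15.3, 13.4 and 15.1 CPM across the control replicates against 16.9, 15.8 and 20.7 CPM across the pum kd replicates, a log2 fold change of 0.28 with a standard error of 0.20. The gene cin, which acts earlier in making the same cofactor, had a log2 fold change of -0.08 and ran from 23.7 to 29.0 CPM over all libraries. The gene cl encodes a thioredoxin-like protein that is also needed to make the drosopterin precursor PDA. It had 60.5, 113 and 75.5 CPM across the control replicates against 129.8, 87.4 and 76.2 CPM across the pum kd replicates, and the groups overlapped, unlike those of se. The remaining genes were DhpD (dihydropterin deaminase), Dhpr (dihydropteridine reductase) and Pcd (pterin carbinolamine dehydratase), at log2 fold changes of 0.14, 0.13 and 0.09.

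The 13 genes listed under granule trafficking include those of subunits of the AP-3 adaptor and the HOPS tethering complex, which deliver cargo to lysosomes and pigment granules. Of these, 5 had a log2 fold change above 0 and 8 below, with a median of -0.08. The lowest were ca, an exchange factor of the Rab GTPase lightoid, at -0.21, and g, the AP-3 delta subunit, at -0.20. Rab32, the gene of lightoid, had 158, 156 and 156 CPM across the control replicates against 179, 166 and 185 CPM across the pum kd replicates. Its log2 fold change was 0.17 with a standard error of 0.16. The highest were mah at 1.46, with a standard error of 1.16 and 0 to 111 reads in a library, and or, the AP-3 sigma subunit, at 0.22.

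**Figure D4:**
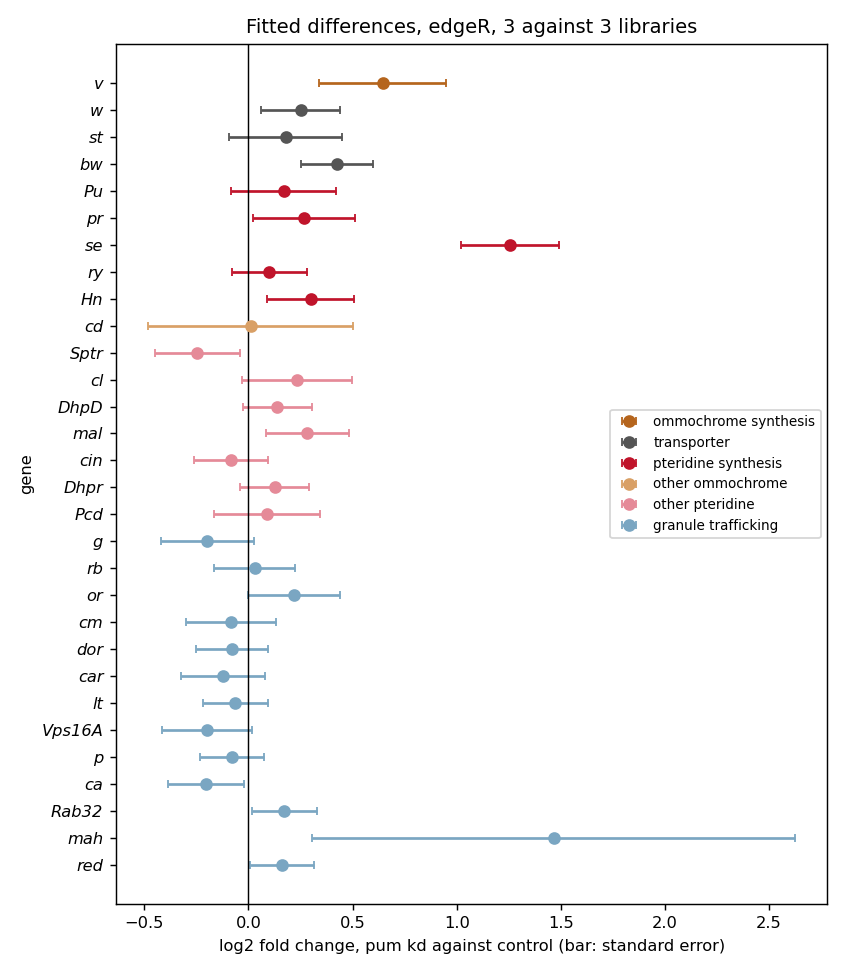
Log2 fold change of pum kd against control heads by edgeR (bars: standard error, 3 libraries against 3) for the 9 members tested and the 21 further pathway genes tested, coloured by class. The value of se, 1.25, stands to the right of the other members, the further pteridine genes lie between -0.25 and 0.28, and mah has the widest bar.

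The markers of the genotypes other than w and v were read in the same way. The gene sev, which encodes the receptor that specifies photoreceptor R7, had 92.1, 91.3 and 93.9 CPM across the control replicates against 71.5, 70.5 and 89.2 CPM across the pum kd replicates. All knockdown libraries lay below all control libraries, at a log2 fold change of -0.26 with a standard error of 0.16 (adjusted p = 0.993 by edgeR). Groups were apart, in either direction, in 10.3% of all genes tested. The pigmentation gene y had 4 reads in control replicate 3, 14 in pum kd replicate 2 and 0 in the other libraries, and sc had 0 reads in every library. Neither y nor sc passed the filter on low counts, so neither was tested.

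Over 14 alternative settings for each member, v, w, bw, pr, se and Hn kept a log2 fold change above 0, and that of st, Pu and ry fell to -0.03, -0.18 and -0.02 when 1 pum kd library was left out. The range was 0.34 to 0.60 for bw, 0.45 to 0.83 for v and 1.05 to 1.51 for se. The lowest value of se came from a correction for gene length in each library. No member other than se was called under any alternative.

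**Figure D5:**
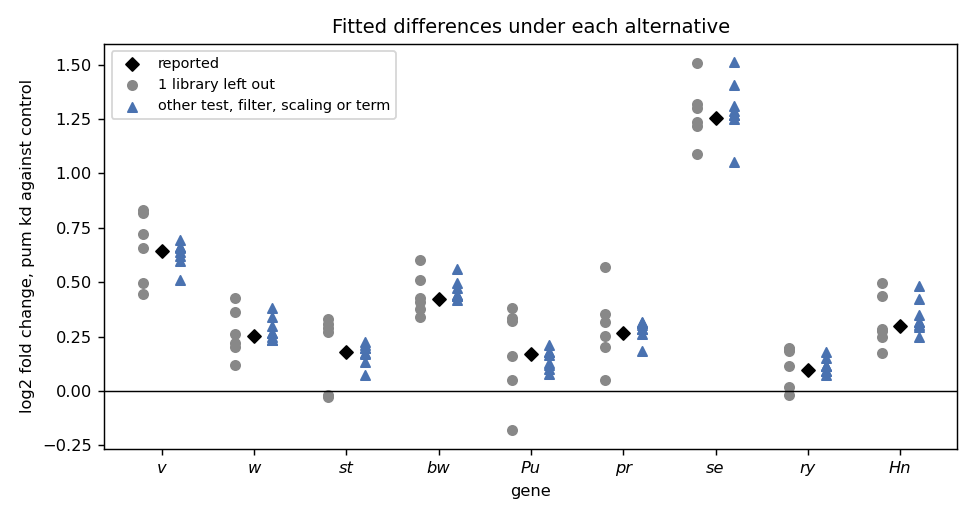
Log2 fold change of pum kd against control heads for each member tested: the reported value (diamonds), with 1 library left out (circles) and under another test, filter, scaling or term (triangles). All values of se lie at or above 1.05, and values below 0 occur for st, Pu and ry.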

How the data were processed

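Reads were checked (FastQC 0.12.1) and trimmed (Trimmomatic 0.39) by the authors, who used STAR 2.7.11b for alignment to dm6 and for counting, and deposited raw counts per gene for 6 libraries. The annotation and strand setting of the counting are not given in the sources used here. A second deposited table holds a normalized signal (counts corrected with ComBat-seq and scaled by size factors of DESeq2) with the authors' log2 fold changes and p-values, which were not used. Its signal served only to check the ComBat-seq division.

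Rows naming no gene held 11.5% to 14.2% of counts and were left out. Of 17807 genes, 17710 matched the Ensembl annotation of dm6 by identifier. The test was the quasi-likelihood test of edgeR 4.0.16 in R 4.3.3, after filterByExpr and TMM, with p-values adjusted by Benjamini-Hochberg over 10696 genes. Standard errors are the log2 fold change divided by the square root of F. The script was tested on simulated data. Within a group, library pairs differed far beyond sampling noise (chi-square per degree of freedom at least 45.8). The labels do not say whether replicates came from separate cultures, so p-values measure only the spread between these pools, and limits from counts of 0 cover counting error only.

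The members and lists were chosen with earlier results of these data known. Named are all members, the other pathway genes of both branches, the extremes of the trafficking list, genotype markers and pum. Alternatives were DESeq2 1.42.0, RLE size factors, no filter, a mean of at least 1 CPM, a replicate block, the division as a term, ComBat-seq (sva 3.50.0), a loess correction for exon length (span 0.3) and each library left out.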

Additional observations from a re-analysis of the deposited data

How the results depend on the processing

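The number of genes called over the whole table was 11. It was 55 with DESeq2, 73 without a filter, 29 after ComBat-seq and 22 with the gene length correction, and leaving out single libraries gave 1 (control replicate 3 left out) to 30 (control replicate 2 left out). The number of eye pigment members called was 0, and it was 1 with DESeq2, without a filter and after ComBat-seq, and leaving out single libraries gave 0 to 1 (1 without control replicate 1). In each case the called member was se. None of the 21 other pathway genes was called under any of the 14 alternatives. The labels do not say whether libraries of the same replicate number were handled together. Correlations of same-numbered deviations were -0.09, -0.02 and 0.01, which cannot settle this with 3 libraries in a group. With a replicate block, 14 genes and 0 members were called, and the log2 fold change of se was 1.29. Read numbers in a library were lowest for cn (0 to 26, not tested), mah (0 to 111), cd (64 to 145) and v (127 to 392).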
